A study of Homo sapiens with 32 samples.

Results

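HEK293T cells that received the METTL3 inhibitor STM2457 for 6 h were compared with cells that received the solvent DMSO alone for 6 h, in the arm of the emetine experiment to which no emetine was added. HEK293T is an established human cell line, derived from embryonic kidney and expressing large T antigen of the virus SV40. The comparison holds 6 of the 32 libraries of the series, 3 with STM2457 at 20 µM in 0.2% DMSO and 3 with 0.2% DMSO, chosen by their sample titles. Both groups were given DMSO in place of emetine for the last 2 h, and neither was given siRNA. All genes are described, 15817 of 60662 gene IDs having enough counts to be tested. The cells are of 1 line and the inhibitor was used at 1 concentration. The labels do not say whether the 3 replicates of a group were separate cultures, and if they were not, the spread behind each p-value is technical.

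N6-methyladenosine (m6A) is written into mRNA in the nucleus by a complex of METTL3, METTL14, WTAP and further subunits, mostly at the letters GGAC and close relatives of them. Exon junction complexes keep the writer away from sequence near splice junctions, so m6A is found mainly in long exons, around stop codons and in intronless genes. In the cytoplasm YTHDF proteins bind the mark and bring the mRNA to the CCR4-NOT deadenylase, which starts its decay. STM2457 blocks the catalytic site of METTL3.

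Gene counts per library came to 24020283 to 27068380 with STM2457 and 25024036 to 28053353 with DMSO. Of the genes known of HEK293 lines, LIN28B stood at 174 to 180 CPM (counts per 1000000 after TMM scaling of the libraries) with STM2457 and 170 to 186 with DMSO, and IGF2BP1 at 436 to 459 with STM2457 and 441 to 496 with DMSO. PAX2, by contrast, was at only 3.82 to 4.62 CPM with STM2457 and 3.36 to 4.23 with DMSO. NEFL lay at 163 to 175 CPM with STM2457 and 123 to 127 with DMSO, and KRT18 at 42.6 to 45.6 CPM with STM2457 and 56.3 to 62.4 with DMSO, so the levels of these genes were not all alike in the 2 groups. At an adjusted p under 0.05 (edgeR), 4 of the 14 tested were higher and 5 lower, beside 26.0% and 21.9% of all tested genes. Markers of other cell types were low or absent, apart from COL1A1 and KRT10. PTPRC, CD3E and HBB of blood cells, COL1A2 of fibroblasts, FGA and FGB of hepatocytes, and KRT5 and KRT1 of keratinocytes had 0 counts in all 6 libraries. The 12 blood markers summed to 2.59 to 2.83 CPM with STM2457 and 3.44 to 4.16 CPM with DMSO, and the part of this gap in the results was not tested. The 10 fibroblast markers summed to 27.1 to 28.2 CPM with STM2457 and 28.1 to 29.3 with DMSO, most of it COL1A1. The 10 keratinocyte markers summed to 21.3 to 23.1 CPM with STM2457 and 20.1 to 22.9 with DMSO. Most of that sum was KRT10, at 20.9 to 22.9 CPM with STM2457 and 19.9 to 22.5 with DMSO. Spike-in RNAs (ERCC) took 0.585%, 0.575% and 0.584% of the counts with STM2457, against 0.529%, 0.559% and 0.592% with DMSO. That is a difference of 0.0211 percentage points (exact two-sided permutation test, p = 0.4, where the smallest p that 3 against 3 libraries allow is 0.1). Fewer cells of a type and less RNA per cell cannot be told apart in such bulk libraries.

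STM2457 changed many transcripts within 6 h, most of them by little. At an adjusted p under 0.05 (edgeR quasi-likelihood test, Benjamini-Hochberg adjustment), 4108 genes (26.0%) were higher with STM2457 and 3459 (21.9%) were lower. The median log2 change was 0.38 among the higher genes and −0.28 among the lower ones. Changes of at least 2-fold were seen in 291 higher genes (1.84%) and 456 lower genes (2.88%), and changes of at least 4-fold in 17 higher and 81 lower genes. In 3861 of the higher and 3218 of the lower genes no STM2457 library overlapped a DMSO library. This was counted among called genes only, where the call itself makes such separation likely, and no share over all tested genes is given. The falls of 2-fold or more lay mainly among rare transcripts. Below a mean of 0 log2 CPM 74 genes rose and 220 fell by this much, whereas between 6 and 8 log2 CPM 54 rose and 4 fell. The split into higher and lower genes depends on what is held constant. With libraries scaled to the cytosolic ribosomal protein genes, the median over all genes shifted by −0.17, and there were 2200 higher and 6684 lower genes, and with spike-in scaling the shift was −0.13, with 2092 higher and 4679 lower genes. All changes below are with TMM scaling unless another is named. The medians of the gene lists below are lower under both of these scalings, also where only TMM counts are given.

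**Figure D1:**
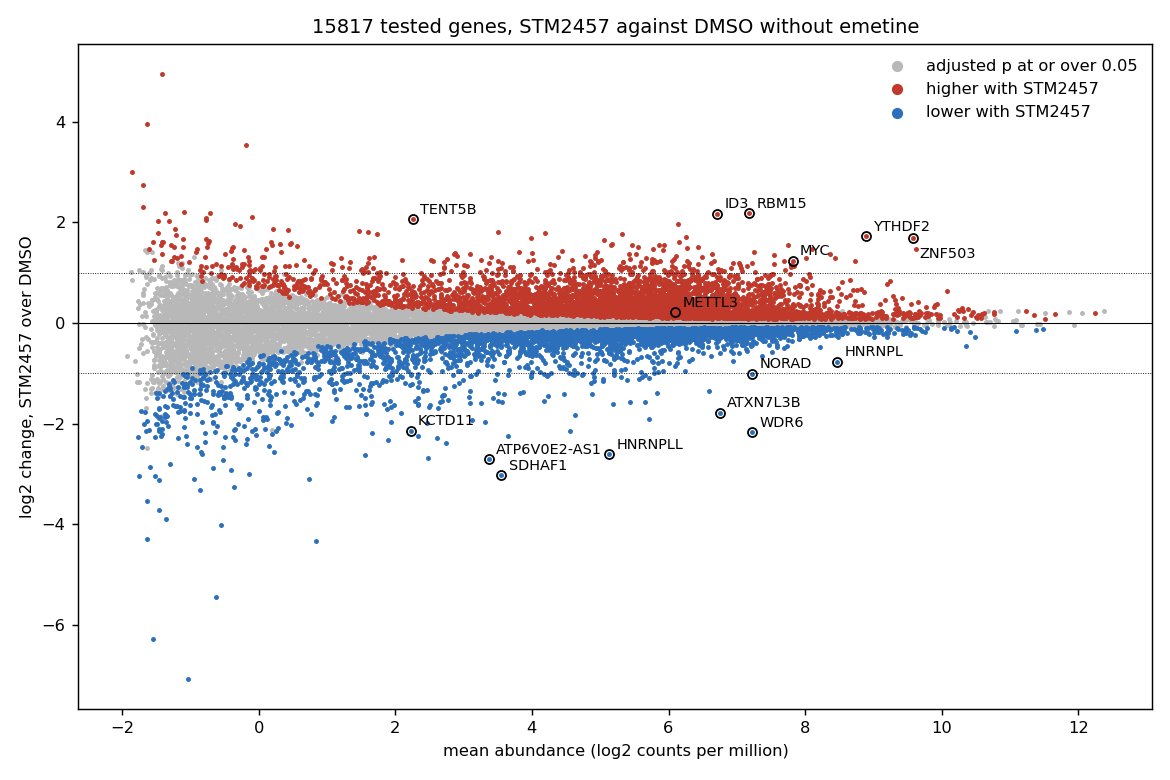
Log2 change with STM2457 over DMSO (y axis) against mean abundance in log2 CPM (x axis) for the 15817 tested genes, each a point. Genes at an adjusted p under 0.05 are red where higher and blue where lower, the dotted lines mark 2-fold, and circles mark named genes, with RBM15 at 2.18 and SDHAF1 at −3.02.

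The largest rises among protein coding genes joined a subunit of the m6A writer, an m6A reader and regulators of signalling. RBM15 (chromosome 1, 110338506 to 110346681 on GRCh38), which guides the writer complex to RNA, stood at 220, 226 and 226 CPM with STM2457, against 51.0, 49.4 and 48.0 CPM with DMSO. That was a 4.52-fold rise (log2 change 2.18, SE 0.04, adjusted p = 1.04e-30). Reads of RBM15 and of RBM15-AS1 on the opposite strand may have been shared, since the strand setting of the counting is not given. ID3 (chromosome 1, 23557918 to 23559794), an inhibitor of basic helix-loop-helix factors and a target of BMP signalling, had 166, 155 and 158 CPM with STM2457, against 35.7, 35.0 and 35.4 CPM with DMSO (log2 change 2.17, SE 0.04, adjusted p = 5.03e-29). In both genes every STM2457 library lay more than 4-fold above every DMSO library. TENT5B (chromosome 1, 27005020 to 27012836), of the family of non-canonical poly(A) polymerases, had few counts, with 8.10, 8.31 and 8.24 CPM with STM2457, against 1.59, 2.28 and 2.03 CPM with DMSO (2.06, SE 0.13, adjusted p = 1.78e-15). YTHDF2 (chromosome 1, 28736621 to 28769775), the reader that brings methylated mRNA to deadenylation, rose to 760, 774 and 764 CPM with STM2457, against 232, 238 and 223 CPM with DMSO (1.73, SE 0.03, adjusted p = 5.03e-29).

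TRIM13, an E3 ligase that acts in degradation at the endoplasmic reticulum, rose to 102, 108 and 109 CPM with STM2457, against 25.4, 28.0 and 27.8 CPM with DMSO. Its exons overlap KCNRG on the same strand and DLEU2 on the other, so part of these reads may belong to those genes. ZNF503, a transcriptional repressor of the NET family, had 1030, 1080 and 1030 CPM with STM2457, against 338, 337 and 302 CPM with DMSO. The other members of the 12 largest rises were ADPRM, a phosphodiesterase of ADP-ribose (log2 change 1.80), DEPP1, a target of FOXO factors (1.78), MED18 of the Mediator head (1.76), MAD2L1BP, which silences the spindle checkpoint (1.72), BAMBI, a decoy receptor that dampens TGF-beta signalling (1.64), and ERRFI1, an inhibitor of the EGF receptor (1.61). Adjusted p lay between 1.04e-30 for RBM15 and 1.78e-15 for TENT5B, and the libraries of the 2 groups did not overlap in any of the 12, as the choice of these genes required.

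The largest falls were those of a mitochondrial assembly factor, a splicing regulator and several intronless genes. SDHAF1 (chromosome 19, 35995199 to 35996315), an assembly factor of succinate dehydrogenase, had 2.07, 2.08 and 1.55 CPM with STM2457, against 15.2, 14.8 and 16.2 CPM with DMSO (log2 change −3.02, SE 0.11, adjusted p = 6.78e-22). HNRNPLL (chromosome 2, 38561978 to 38603586), a splicing regulator, had 8.91, 6.70 and 7.84 CPM with STM2457, against 46.1, 48.6 and 48.0 CPM with DMSO (−2.61, SE 0.07, adjusted p = 1.06e-24). WDR6 (chromosome 3, 49007062 to 49015953), a partner of the tRNA ribose methyltransferase FTSJ1, fell to 53.1, 51.4 and 50.9 CPM with STM2457, against 243, 231 and 225 CPM with DMSO (−2.17, SE 0.04, adjusted p = 5.17e-29). All 3 STM2457 libraries of WDR6 lie close together, and DALRD3 on the opposite strand overlaps its exons. ATXN7L3B, a relative of the SAGA subunit ATXN7L3, was at 48.0, 46.9 and 51.6 CPM with STM2457, against 168, 172 and 166 CPM with DMSO (−1.79, SE 0.04, adjusted p = 2.94e-26).

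Further down the list, C14orf132 stood at 5.58, 4.33 and 4.54 CPM with STM2457 and 23.2, 22.4 and 22.6 CPM with DMSO. KCTD11, an adaptor of the ubiquitin ligase scaffold CUL3, was at 1.44, 1.57 and 1.11 CPM with STM2457 and 6.00, 6.58 and 5.57 CPM with DMSO. ZNF33B, a zinc finger protein (log2 change −2.15), SMIM10, a small membrane protein (−1.94), PCNX4, a membrane protein of the pecanex family (−1.92), FOXE1, a forkhead factor (−1.62), and BCHE, butyrylcholinesterase (−1.62), complete the set, together with ENSG00000285053, a gene without a symbol (−2.38). The last shares exons with TBCE and GGPS1 on its own strand, and how its reads were told from theirs is not known. Adjusted p of the 12 falls lay between 5.17e-29 for WDR6 and 4.46e-10 for FOXE1.

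**Figure D2:**
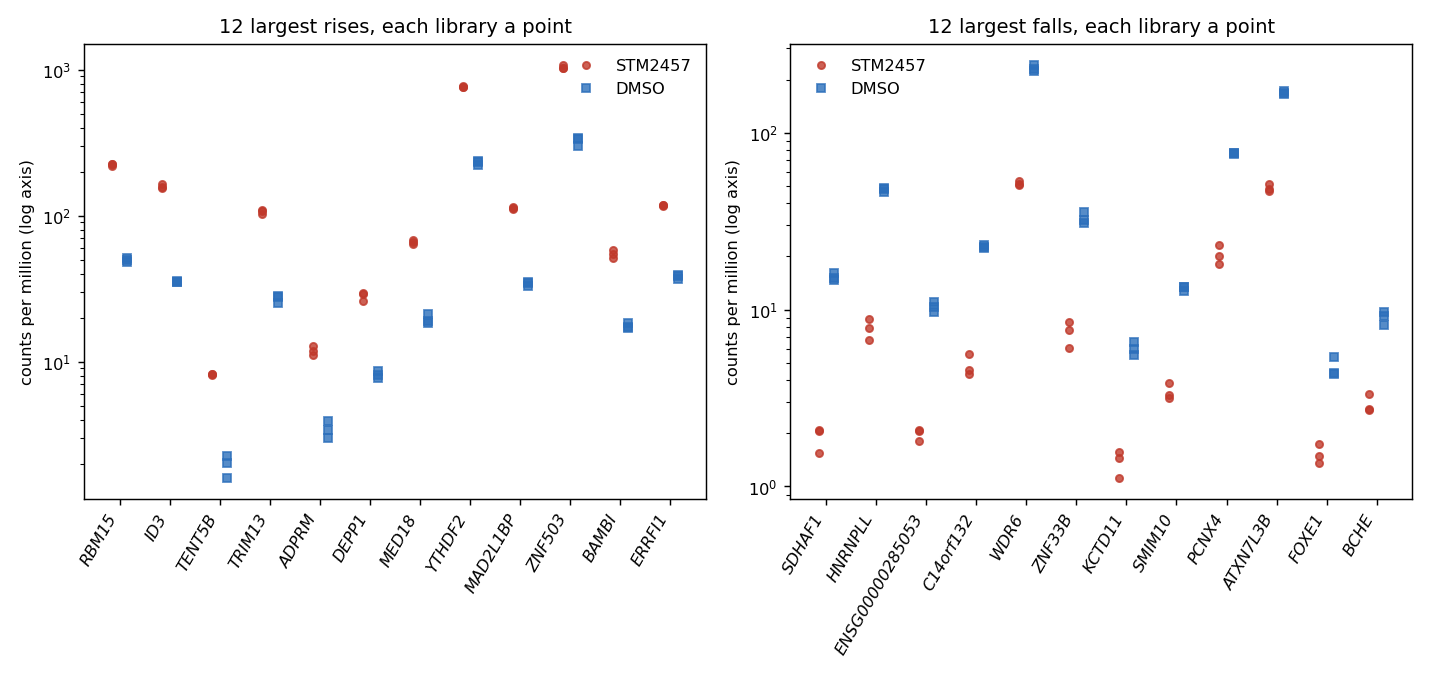
CPM in each library (y axis, log scale) for the 12 protein coding genes with the largest rise (left panel) and the 12 with the largest fall (right panel). Each red circle is an STM2457 library and each blue square a DMSO library, and in all 24 genes the groups of 3 stand apart, for example YTHDF2 at 760 to 774 with STM2457 and 223 to 238 with DMSO.

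The letters GGAC, the most common core of m6A sites, were present in both sets. The windows printed here are the 30 coding bases that hold the most GGAC in 3 of the largest rises and 3 of the largest falls. They are read from the GENCODE release 29 transcript with the longest coding part, 5′ to 3′, with each GGAC in capitals.
RBM15: gaGGACtgcggggcgGGACcctgtgccgcg
ID3: cgctgagcttgctGGACgacatgaaccact
TENT5B: agGGACcgggcggctgctcaggtggGGACg
SDHAF1: ggggcaccggagacccgccccgacGGACgg
C14orf132: tttcatGGACtcgcccaacgaGGACttcag
WDR6: tcgacatGGACgctctcgaGGACtacgttt
The RBM15 window covers coding bases 3 to 32 and the WDR6 window coding bases 86 to 115, counted from 1 at the start codon. Such windows are common. Of 13147 tested genes with a coding transcript, 97.4% had a window with at least 1 GGAC, 51.2% one with at least 2 and 5.16% one with at least 3. The whole coding part held 20 GGAC in RBM15, 2 in ID3 and 12 in TENT5B, and 1 in SDHAF1, 2 in C14orf132 and 14 in WDR6, so the letters alone did not separate the largest rises from the largest falls. No m6A measurement was used here, and a GGAC is a run of letters, not a site.

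Among abundant transcripts, with a mean of at least 7 log2 CPM, the largest rises were those of RBM15, YTHDF2, ZNF503 and 3 others. HOXD13, a homeobox factor of the limb and urogenital tract, had 372, 364 and 386 CPM with STM2457, against 127, 126 and 133 CPM with DMSO (log2 change 1.54, SE 0.04). ZNF703, the close relative of ZNF503, reached 1130, 1220 and 1200 CPM with STM2457, against 431, 439 and 406 CPM with DMSO (1.48, SE 0.04). GEMIN4, of the SMN complex that assembles spliceosomal snRNPs, rose to 390, 413 and 400 CPM with STM2457, against 144, 147 and 145 CPM with DMSO (1.46, SE 0.03). On the falling side WDR6 was followed by much smaller changes. NORAD, a long noncoding RNA that binds Pumilio proteins, stood at 107, 109 and 105 CPM with STM2457 and 220, 223 and 203 CPM with DMSO (−1.01, SE 0.04). HNRNPL, the paralog of HNRNPLL, was at 266, 265 and 261 CPM with STM2457 and 450, 450 and 449 CPM with DMSO (−0.77, SE 0.03). H2AX, the histone variant marked at DNA breaks (−0.65), SLC35A4 of the nucleotide sugar transporter family (−0.59) and URB2, a ribosome biogenesis factor (−0.58), fell too.

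The genes of the m6A machinery itself moved mostly upward. All 8 writer genes tested were higher, with a median log2 change of 0.63 against 0.00 for all tested genes. Of all tested genes 26.0% were higher and 21.9% lower. After RBM15, its paralog RBM15B reached 312, 335 and 323 CPM with STM2457, against 158, 159 and 148 CPM with DMSO (1.06, SE 0.04), although DCAF1 overlaps it on the opposite strand. WTAP, which holds the complex in nuclear speckles, had 242, 242 and 238 CPM with STM2457, against 125, 129 and 138 CPM with DMSO (0.88, SE 0.04). CBLL1 (0.66), METTL14 (0.61), ZC3H13 (0.43) and VIRMA (0.26) were smaller rises. METTL3, the target of the drug, changed least, with 69.5, 68.9 and 75.9 CPM with STM2457, against 60.3, 58.9 and 65.3 CPM with DMSO (0.22, SE 0.04, adjusted p = 0.000105). With ribosomal protein scaling the METTL3 change was 0.05 (adjusted p = 0.431), and 6 of the 8 writers were higher under either scaling. Of the 12 readers and erasers 6 were higher and 3 lower (median 0.06, but −0.11 with ribosomal protein and −0.07 with spike-in scaling). The cytoplasmic readers YTHDF3 (0.89) and YTHDF1 (0.74) rose beside YTHDF2, as did the nuclear reader YTHDC1 (0.66) and the demethylase ALKBH5 (0.41). The demethylase FTO (−0.14), YTHDC2 (−0.16) and IGF2BP3 (−0.12) were slightly lower. Many genes named in these lists also share exon bases with a tested gene of the opposite strand. Among them are METTL3, WTAP, CBLL1, ALKBH5, ID2, DDIT4, MDM2, SETDB1, TAF5, TOB1, SRRM2, MRPS25, CHAF1A and ANLN. So do DNAJB9, SLC6A9, KBTBD7, MED26, GAS5, ERRFI1, ZNF503, NEFL and KRT18. The same holds for DEPP1, PCNX4, SLC35A4 and SNHG10, while BTG1 and ZBTB24 share bases with a tested gene of their own strand. HNRNPL and UQCR11 overlap genes without a symbol or counts on their own strand.

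Genes of signalling feedback and of developmental transcription factors rose far more often than they fell. In the BMP and TGF-beta list 11 of 17 tested genes were higher and 1 lower (64.7% and 5.88%, median log2 change 0.51). Over all tested genes the shares were 26.0% and 21.9%, and they stand beside every list count below. Beside ID3 and BAMBI, ID2 rose to 216, 202 and 206 CPM with STM2457, against 95.4, 90.6 and 95.4 CPM with DMSO, a 2.22-fold change. The co-repressor SKI (0.68) and ID4 (0.56) followed, and the lower gene was ATOH8 (−1.0, adjusted p = 0.0473). Of 34 immediate early genes 18 were higher and 1 lower (median 0.30). MYC, the growth-promoting transcription factor, had 347, 367 and 368 CPM with STM2457, against 159, 153 and 145 CPM with DMSO (1.24, SE 0.04). RHOB, a short-lived small GTPase, had 379, 399 and 403 CPM with STM2457, against 157, 160 and 164 CPM with DMSO (1.29, SE 0.04). ZFP36L1, which destabilises AU-rich mRNAs (0.72), BTG1 (0.67) and IER5 (0.54) rose less. Feedback inhibitors of receptor tyrosine kinases and MAP kinases were higher in 14 and lower in 1 of 24 (median 0.30). After ERRFI1 these were led by SOCS6 (0.89), the MAP kinase phosphatases DUSP16 (0.66) and DUSP7 (0.56), and SOCS5 (0.61).

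Transcription factor families gave similar counts, again beside 26.0% higher and 21.9% lower over all tested genes. Of 36 HOX genes 26 were higher and 1 lower (median 0.47). HOXB9 had 580, 582 and 594 CPM with STM2457, against 322, 319 and 324 CPM with DMSO (0.86, SE 0.03), and HOXB6 (0.93), HOXA5 (0.76) and HOXA10 (0.71) stood beside it. HOXB6 overlaps HOXB3 on the same strand, and HOXA10 an antisense RNA. Other homeobox and paired box factors were higher in 23 and lower in 2 of 36 (median 0.39), among them MSX2 (1.41), a target of BMP signalling, and the kidney progenitor factor SIX2 (1.02). KLF and SP factors were higher in 11 and lower in 1 of 13 (median 0.32), for example KLF9 (0.82), KLF11 (0.80) and SP1 (0.67). With ribosomal protein scaling, as with spike-in scaling, only 5 of the 13 were higher and 1 was lower. SOX factors were higher in 7 and lower in 1 of 11 (median 0.33), and 5 were higher and 1 lower under either of these scalings. SOX4 had 167, 176 and 177 CPM with STM2457, against 85.3, 88.2 and 85.4 CPM with DMSO (1.01, SE 0.04), and SOX2 (0.62) and SOX9 (0.49) rose less. Of 28 targets of Notch, Hedgehog and Hippo signalling 17 were higher and 2 lower (median 0.28). HEY1, a Notch target, had 491, 490 and 483 CPM with STM2457, against 212, 208 and 207 CPM with DMSO (1.22, SE 0.03), while LATS2, a Hippo kinase and YAP target, rose 2.27-fold. WNT targets were higher in 13 and lower in 2 of 26 (median 0.16, but −0.01 with ribosomal protein scaling). They included the WNT receptors FZD10 (1.33) and FZD8 (0.86), and ZNRF3 (0.84) and AXIN1 (0.70), which dampen the pathway.

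Histone acetyltransferases and methyltransferases were higher in 20 and lower in 7 of 31 (median 0.24). SUV39H1, which methylates histone H3 in heterochromatin, had 121, 123 and 120 CPM with STM2457, against 61.9, 57.8 and 59.6 CPM with DMSO (1.02, SE 0.04). The paired acetyltransferases CREBBP (0.80) and EP300 (0.65) rose to similar degrees, as did KAT6A (0.73) and SETDB1 (0.64). Mediator subunits were higher in 12 and lower in 15 of 32 (median −0.07). Ribosomal protein scaling gave 8 higher and 18 lower, and spike-in scaling 7 and 15. MED18 (1.76) and MED26 (1.00) rose 2-fold or more, and MED22 (−0.67) and MED27 (−0.40) fell. TFIID and general transcription factors were higher in 9 and lower in 7 of 27, near the shares of all tested genes, with TAF5 at 0.53 and TAF7, an intronless gene, at −0.43. Of 416 zinc finger genes with ZNF symbols 190 were higher and 52 lower (median 0.22). Ribosomal protein scaling gave 132 higher and 88 lower of them (median 0.05), and spike-in scaling 129 and 66 (median 0.08). Of 39 ZBTB factors 23 were higher and 7 lower (median 0.22), and 17 were higher and 7 lower under either of these scalings. ZBTB24, mutated in an immunodeficiency with centromere instability (1.16), and ZBTB2 (1.04) rose, while ZBTB26 fell to 4.14, 3.77 and 3.74 CPM with STM2457, against 11.1, 11.4 and 11.7 CPM with DMSO (−1.56, SE 0.10).

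KLHL, KBTBD and KCTD proteins, most of them adaptors of CUL3, were higher in 26 and lower in 8 of 46 (median 0.17). Ribosomal protein scaling gave 18 higher and 12 lower (median 0.00), and spike-in scaling 16 and 11. KLHL21, needed for the chromosomal passenger complex to leave chromosomes, had 205, 210 and 202 CPM with STM2457, against 94.2, 92.8 and 82.6 CPM with DMSO (1.19, SE 0.04). KBTBD7 (1.25), KLHL11 (1.23) and KBTBD6 (0.92) also rose. TRIM proteins were higher in 21 and lower in 5 of 38 (median 0.17), but 10 were higher and 10 lower with ribosomal protein scaling (median 0.00) and 9 and 8 with spike-in scaling. The list included the antibody receptor TRIM21 (1.23) and TRIM26 (0.82).

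**Figure D3:**
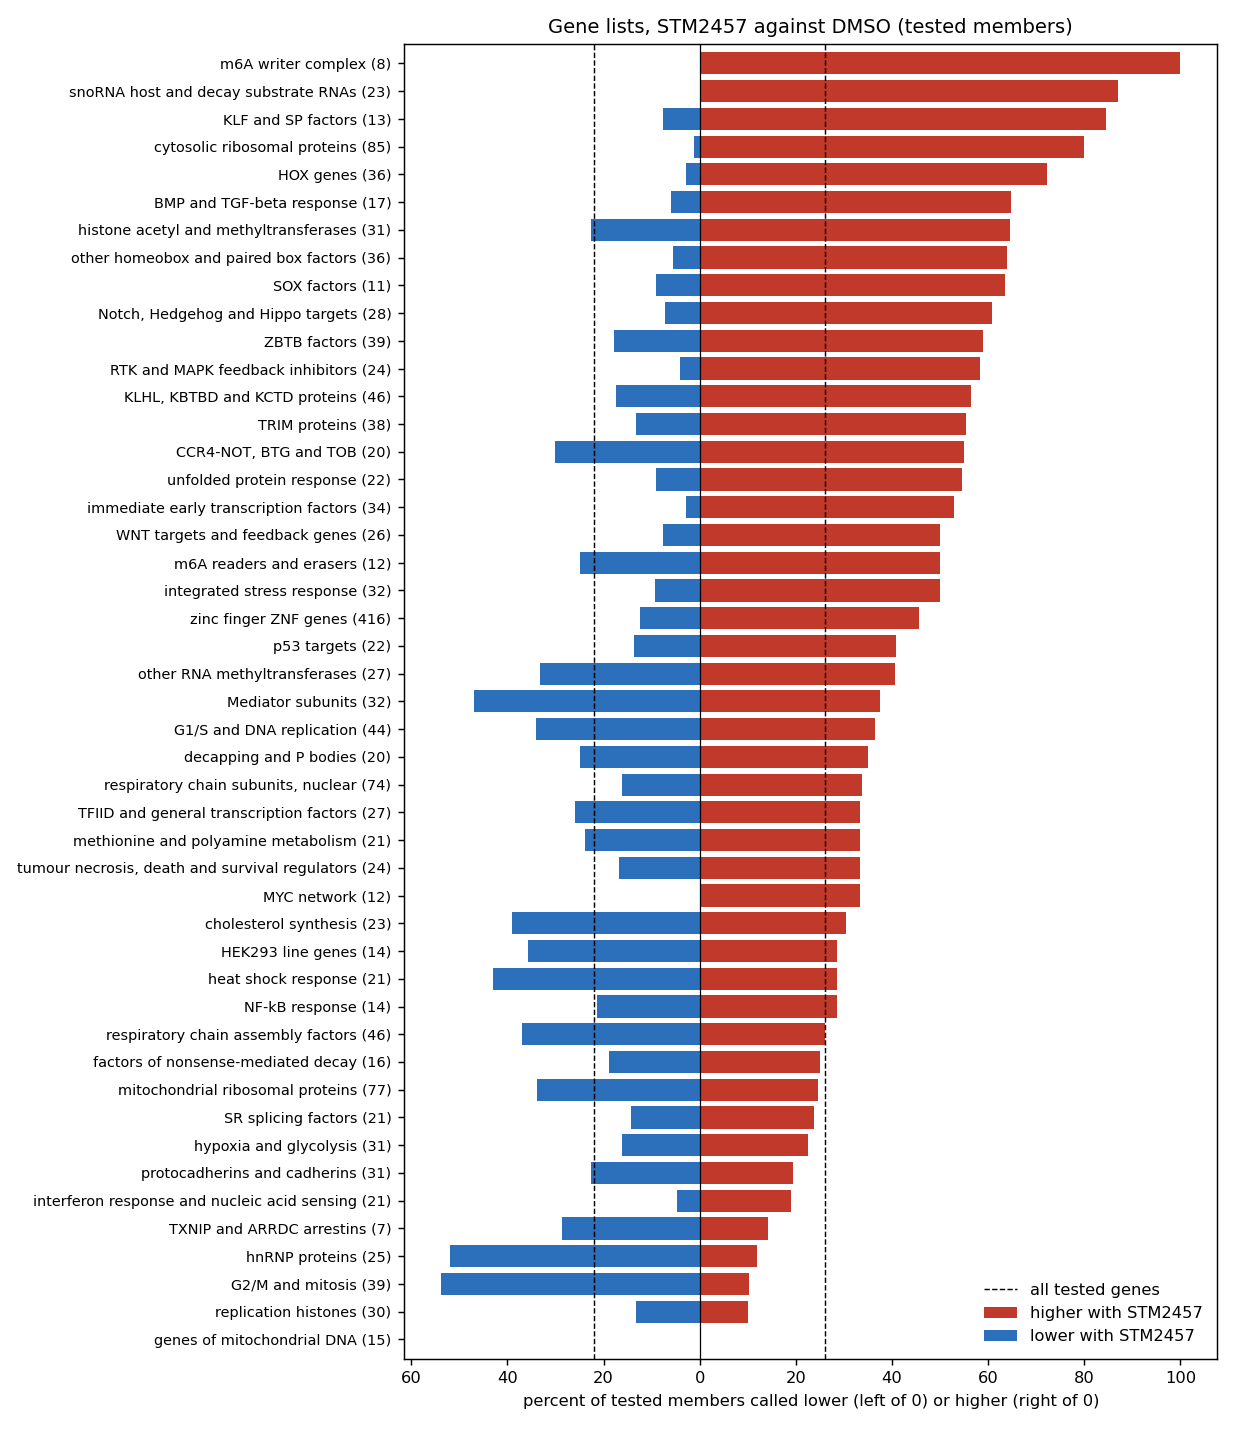
Percent of the tested members of each gene list that were called higher (red, right of 0) or lower (blue, left of 0) with STM2457 at an adjusted p under 0.05, with the number of tested members in brackets. The dashed lines are the shares over all tested genes, 26.0% higher and 21.9% lower, and the lists run from the m6A writer complex (8 of 8 higher) to genes of mitochondrial DNA (none called).

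Among hnRNP proteins, which coat nascent RNA and steer splicing, 3 of 25 were higher and 13 lower (median −0.12). HNRNPLL and HNRNPL led the falls, together with HNRNPH2, at 82.2, 82.7 and 85.2 CPM with STM2457 and 133, 133 and 126 CPM with DMSO (−0.65, SE 0.04). Its paralog HNRNPF moved the other way, with 814, 829 and 830 CPM with STM2457, against 491, 481 and 480 CPM with DMSO (0.77, SE 0.03). The intronless PCBP1 rose by 0.51, with PCBP1-AS1 overlapping it. SR splicing factors were higher in 5 and lower in 3 of 21, and 13 were not called. These shares (23.8% and 14.3%) lie near those of all tested genes, and ribosomal protein scaling gave 2 higher and 13 lower. SRSF4 (0.48) and SRRM2 (0.38) were the clearest rises. CCR4-NOT subunits with BTG and TOB adaptors were higher in 11 and lower in 6 of 20 (median 0.14, but −0.03 with ribosomal protein scaling, where 3 were higher and 9 were lower). The adaptor TOB1 (0.55) and the silencing factors TNRC6B (0.61) and TNRC6A (0.39) rose. Decapping and P-body genes were higher in 7 and lower in 5 of 20, with DCP1B at 0.63, and the higher count was 4 without DMSO replicate 1, 2 or 3 or STM2457 replicate 2. Ribosomal protein scaling gave 2 higher and 11 lower, and spike-in scaling 2 and 6. In the list of nonsense-mediated decay factors 4 of 16 were higher and 3 lower, again near the shares of all tested genes, and 1 was higher and 10 lower with ribosomal protein scaling. SMG8, a regulator of the SMG1 kinase, stood out with 230, 216 and 227 CPM with STM2457, against 84.5, 84.3 and 83.8 CPM with DMSO (1.41, SE 0.04), whereas its partner SMG9 fell by 0.31.

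Methyltransferases of other RNAs were higher in 11 and lower in 9 of 27. METTL16, which methylates U6 snRNA and the MAT2A mRNA, rose to 126, 136 and 129 CPM with STM2457, against 82.4, 80.7 and 76.4 CPM with DMSO (0.70, SE 0.04). TRMT10C, of mitochondrial tRNA (0.63), rose too. METTL1, which makes 7-methylguanosine in tRNA, had 10.1, 9.33 and 9.16 CPM with STM2457, against 18.6, 19.3 and 19.1 CPM with DMSO (−0.99, SE 0.07), with overlapping exons of EEF1AKMT3 and CYP27B1. Host RNAs of snoRNAs and related decay substrates were higher in 20 and lower in 0 of 23 (median 0.37), and DESeq2 and an unadjusted p under 0.05 gave 0 lower too. SNHG3, whose exons overlap RCC1 on the same strand, had 164, 154 and 165 CPM with STM2457, against 76.8, 77.0 and 85.5 CPM with DMSO (1.02, SE 0.04). SNHG16 (0.65), SNHG1 (0.53) and GAS5 (0.49) were other examples. With ribosomal protein scaling 15 of these 23 were higher and 2 were lower.

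Cytosolic ribosomal protein genes were higher in 68 and lower in 1 of 85, but by a median of 0.17 and by no more than 2-fold in any. RPSA, for example, had 1760, 1660 and 1740 CPM with STM2457, against 1390, 1350 and 1510 CPM with DMSO (0.28, SE 0.04). Scaled to the spike-ins, 2 of the 85 were higher and 3 lower (median 0.04), so the count rests on the scaling. Mitochondrial ribosomal proteins were higher in 19 and lower in 26 of 77 (median −0.03). Ribosomal protein scaling gave 12 higher and 51 lower, and spike-in scaling 10 and 32. MRPL44 had 125, 121 and 126 CPM with STM2457, against 65.8, 62.3 and 67.5 CPM with DMSO (0.93, SE 0.04), and MRPS25 fell by 0.60. Assembly factors of the respiratory chain were higher in 12 and lower in 17 of 46 (median −0.06). Ribosomal protein scaling gave 6 higher and 28 lower, and spike-in scaling 6 and 19. These assembly factors held SDHAF1, the largest of the 12 falls above. They also held SCO2, which delivers copper to cytochrome oxidase, at 84.6, 83.2 and 88.4 CPM with STM2457 and 36.5, 33.7 and 36.1 CPM with DMSO (1.27, SE 0.05). SCO2 shares exons with TYMP on the same strand. Nuclear genes for respiratory chain subunits were higher in 25 and lower in 12 of 74 (median 0.05). With ribosomal protein scaling 0 were higher and 38 lower (median −0.12), and with spike-in scaling 0 were higher and 13 lower (median −0.08), so their direction rests on the scaling. UQCR11 of complex III had 18.5, 17.6 and 19.7 CPM with STM2457, against 42.1, 40.2 and 46.0 CPM with DMSO (−1.20, SE 0.06), and was the only 2-fold change in that list. The count of higher subunit genes was 14 without DMSO replicate 1, 14 without DMSO replicate 2 and 13 without STM2457 replicate 1, and that of higher assembly factors was 7 without DMSO replicate 2 and 7 without STM2457 replicate 3. None of the 15 genes of mitochondrial DNA passed the threshold (edgeR, median 0.19), where the lowest adjusted p was 0.0517, for MT-ND6. At an unadjusted p under 0.05 it was 0 higher and 1 lower, and DESeq2 called 0. Single libraries and the filter decided this, since 11 of the 15 were called higher without DMSO replicate 3, 13 without STM2457 replicate 2 and 12 with no filter on low counts.

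Each of the stress response lists held single members with clear rises. Genes of the integrated stress response, which ATF4 drives, were higher in 16 and lower in 3 of 32 (median 0.21), but higher in 12 and lower in 11 with ribosomal protein scaling (median 0.04) and higher in 12 and lower in 4 with spike-in scaling. DDIT4, an inhibitor of mTORC1, had 259, 251 and 287 CPM with STM2457, against 115, 110 and 124 CPM with DMSO (1.20, SE 0.05), and CEBPG had 160, 171 and 164 CPM with STM2457, against 84.8, 86.5 and 83.0 CPM with DMSO (0.96, SE 0.04). The amino acid transporters SLC6A9 (0.61), SLC7A1 (0.55) and SLC7A5 (0.45) rose too. Genes of the unfolded protein response were higher in 12 and lower in 2 of 22 (median 0.12), but higher in 4 and lower in 9 with ribosomal protein scaling (median −0.05) and in 3 and 4 with spike-in scaling (median −0.01). The chaperones of the endoplasmic reticulum DNAJB9 (0.57) and HSPA5 (0.35) were among them. Heat shock genes were higher in 6 and lower in 9 of 21 (median −0.07). HSPA1B had 910, 1020 and 1040 CPM with STM2457, against 586, 651 and 616 CPM with DMSO (0.68, SE 0.06), a value made uncertain by its near-identical copy HSPA1A. Targets of p53, a factor that the large T antigen binds, were higher in 9 and lower in 3 of 22 (median 0.13), but higher in 6 and lower in 8 with ribosomal protein scaling (median −0.05) and in 6 and 3 with spike-in scaling (median −0.01). MDM2, the ligase that degrades p53, was at 168, 170 and 170 CPM with STM2457 and 120, 127 and 127 CPM with DMSO (0.44, SE 0.03), and BAX fell by 0.34.

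Of 14 NF-kB genes 4 were higher and 3 lower (28.6% and 21.4%), near the shares of all tested genes (26.0% and 21.9%), and of 21 interferon and nucleic acid sensing genes 4 were higher and 1 lower. The interferon-induced IFIT5 had 61.6, 58.9 and 60.1 CPM with STM2457, against 33.2, 32.0 and 34.2 CPM with DMSO (0.86, SE 0.04), and IFIT1 rose by 0.78. Cholesterol synthesis genes were higher in 7 and lower in 9 of 23. Ribosomal protein scaling gave 4 higher and 14 lower of them, and spike-in scaling 4 and 11. Hypoxia and glycolysis genes were higher in 7 and lower in 5 of 31 (22.6% and 16.1%, but 4 higher and 17 lower with ribosomal protein scaling). Methionine and polyamine genes were higher in 7 and lower in 5 of 21 (33.3% and 23.8%), not far from the shares of all tested genes. AMD1, which makes the aminopropyl donor of polyamine synthesis, had 786, 751 and 775 CPM with STM2457, against 430, 427 and 440 CPM with DMSO (0.83, SE 0.03). NDRG1 of the hypoxia list rose by 0.67, and 8 hypoxia genes were lower without DMSO replicate 3, 8 without STM2457 replicate 2 and 9 without STM2457 replicate 3. Regulators of cell death and survival were higher in 8 and lower in 4 of 24, with 5 higher without DMSO replicate 3 or STM2457 replicate 2. HRK, a BH3-only activator of apoptosis, was at 2.92, 3.35 and 3.62 CPM with STM2457 and 7.48, 8.23 and 7.93 CPM with DMSO (−1.25, SE 0.11), and BCL2L1 (0.52) and CASP8 (0.73) rose. In the network of MYC partners 4 of 12 were higher and 0 lower (1 lower at an unadjusted p under 0.05, and 0 with DESeq2), among them MYCL (0.80) and MAX (0.31). Ribosomal protein scaling gave 3 higher and 4 lower of this network (median −0.07), and spike-in scaling 1 and 1 (median −0.04). TXNIP and other arrestins were higher in 1 and lower in 2 of 7.

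More mitotic genes fell than rose, by small amounts. In the G2/M list 21 of 39 were lower and 4 higher (median −0.11). CDC20, which activates the anaphase-promoting complex, stood at 178, 175 and 184 CPM with STM2457 and 243, 247 and 249 CPM with DMSO (−0.46, SE 0.03). UBE2S (−0.45), UBE2C (−0.41) and the cytokinesis protein ANLN (−0.36) were similar, and MAD2L1BP was the one 2-fold rise of the list. Genes of G1/S and DNA replication were higher in 16 and lower in 15 of 44 (median −0.02), with CHAF1A (0.57) and ORC1 (0.46) higher and ORC6 (−0.39) and CDC45 (−0.35) lower. Ribosomal protein scaling gave 6 higher and 27 lower of these 44, and spike-in scaling 5 and 20. Replication histone mRNAs lack poly(A) tails, and of 30 histone genes tested 3 were higher and 4 lower. Protocadherins and cadherins were higher in 6 and lower in 7 of 31 (19.4% and 22.6%), near the shares of all tested genes (26.0% and 21.9%). The list included opposite changes of 2-fold or more. PCDH10 had 193, 174 and 198 CPM with STM2457, against 73.8, 72.0 and 73.4 CPM with DMSO (1.37, SE 0.04). PCDHGC3 had 2.16, 1.70 and 1.83 CPM with STM2457, against 6.61, 5.46 and 5.21 CPM with DMSO (−1.61, SE 0.15), in a cluster whose members share exons.

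Long noncoding RNAs were more often lower than higher. Of 1758 tested, 135 (7.68%) were higher and 451 (25.7%) lower, with a median log2 change of −0.22, whereas of 13179 protein coding genes 3910 (29.7%) were higher and 2872 (21.8%) lower, with a median of 0.02. The classes differ in abundance, and among genes with a mean of at least 2 log2 CPM the counts were 52 higher and 127 lower of 282 noncoding RNAs, beside 3698 and 2668 of 10861 protein coding genes. Divergent transcripts, named for the gene whose promoter they share, were higher in 9 and lower in 68 of 226 (median −0.32), and antisense transcripts named as such were higher in 24 and lower in 141 of 456 (median −0.28). Host genes of snoRNAs were the exception, with 21 higher and 1 lower of 24. This set takes all SNHG genes with GAS5 and ZFAS1. Its lower gene, which fell by 2-fold or more, is not among the 23 host and decay substrate RNAs above. Among noncoding RNAs with a mean of at least 2 log2 CPM and no overlap between the groups, the largest falls were ATP6V0E2-AS1, with 1.66, 1.78 and 1.91 CPM with STM2457, against 12.4, 11.7 and 11.1 CPM with DMSO (−2.71, SE 0.12), TFIP11-DT (−2.24), OGFRP1 (−1.99), BAIAP2-DT (−1.97) and LINC00205 (−1.83). LINC00205 had 9.36, 12.1 and 11.1 CPM with STM2457, against 37.8, 41.2 and 37.2 CPM with DMSO. The largest rises by the same rule were EMSLR, with 31.6, 29.9 and 28.8 CPM with STM2457, against 11.1, 10.7 and 11.6 CPM with DMSO (1.43, SE 0.06), ENSG00000277534 (1.11), SNHG3 (1.02), SNHG10 (0.92) and ENSG00000273466 (0.90).

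The direction of change went with how densely a transcript is spliced. For 13147 protein coding genes the number of exon junctions per kb of coding sequence was counted in the GENCODE release 29 transcript with the longest coding part. All junctions of the transcript were counted, those in untranslated parts included, so a short coding part raises the value. Genes with more than 0 and up to 1 junction per kb had a median log2 change of 0.42, and 249 of 414 (60.1%) were higher. The median was 0.29 between 1 and 2 junctions, 0.23 between 2 and 4, and 0.06 between 4 and 6. It was −0.03 between 6 and 8, −0.06 between 8 and 10, and −0.06 above 10, where 145 of 999 (14.5%) were higher and 302 (30.2%) lower. Over all these genes Spearman's rho of the log2 change with junction density was −0.33, and −0.42 among the 8623 genes with a mean of at least 4 log2 CPM. This is a description across genes, which share libraries and are not independent. Coding length alone (rho 0.04), GC content of the coding part (rho 0.01) and GGAC per kb of coding sequence (rho 0.00) went with the change far less. The longest exon of the transcript had a rho of 0.17. The number of exons, a planned feature, had a rho of −0.20, and −0.23 among the genes with at least 4 log2 CPM. The density of junctions was added to the planned features after values had been seen.

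Intronless genes moved in both directions. Of 324 genes with 1 exon 135 (41.7%) were higher and 67 (20.7%) lower (median 0.21). Those with 0 to 3 GGAC in the coding part had a median of −0.02, with 24 higher and 36 lower of 117. With 4 to 8 GGAC the median was 0.29, and with 9 or more it was 0.55, with 55 higher and 6 lower of 82. More GGAC here also means a longer coding part, and the part of length was not tested. Above 8 junctions per kb the order turned, with medians of −0.03, −0.07 and −0.08 from few to many GGAC. Among the 12 largest falls 5 genes had a single exon, namely SDHAF1, KCTD11, SMIM10, ATXN7L3B and FOXE1, and in each of them the coding part was shorter than the 3′ untranslated part. SDHAF1 has 348 coding bases and 693 bases after the stop codon, and ATXN7L3B 294 and 7024. A short coding part is common among the 324 genes with 1 exon. In 198 of them it was shorter than the untranslated parts together. Of these 198 genes 85 (42.9%) were higher and 53 (26.8%) lower, with 16 rises and 21 falls of 2-fold or more. Of the other 126 genes 50 were higher and 14 lower, with 13 rises and 4 falls of 2-fold or more. The 12 largest rises had 2 to 5 exons each. Over the 235 coding genes that rose 2-fold or more the median was 3 exons, and over the 132 that fell 2-fold or more it was 4 exons, beside 9 exons over all 13147. Single-exon genes made up 12.3% of these rises and 18.9% of these falls, beside 2.46% of all. Scaling to the ribosomal protein genes shifts these medians too, by the −0.17 given for all genes.

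**Figure D4:**
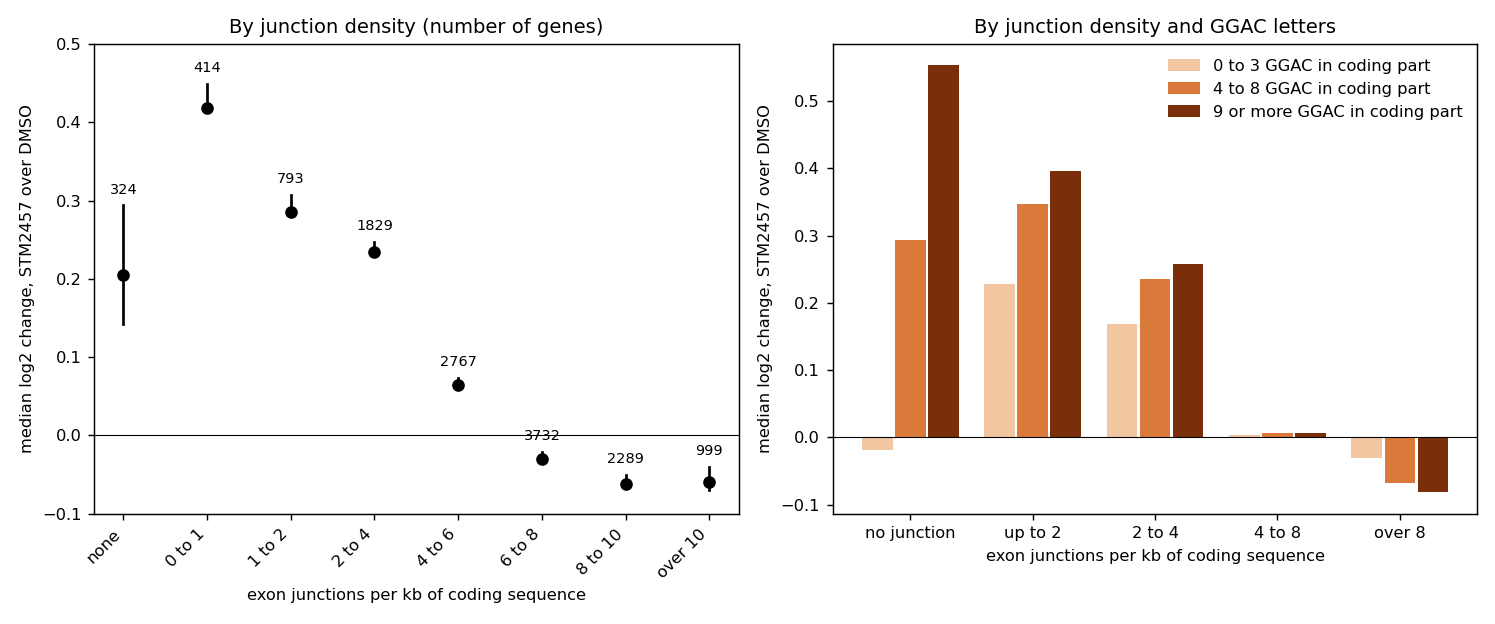
Median log2 change with STM2457 over DMSO (y axes) of protein coding genes by exon junctions per kb of coding sequence (x axes). On the left the points are fitted medians, the lines run from the lowest to the highest of the 3 STM2457 libraries (each on log2(CPM + 0.05) against the DMSO mean) and the numbers count genes, with medians from 0.42 at up to 1 junction to −0.06 above 10. On the right each group is split by the number of GGAC in the coding part (bars start at 0), which separates the intronless genes from −0.02 to 0.55.

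The same inhibitor at 20 µM was sequenced in other libraries of the series, none of which gives a level above. They are 3 libraries with STM2457 and 3 with DMSO for 6 h in the knockdown experiment (cells without siRNA), 4 and 4 for 9 h, and 3 and 3 for 6 h with emetine at 1.8 µM in the last 2 h. Emetine stops translation elongation. Of the genes that rose 2-fold or more here, 245 of 286 tested (85.7%) were higher after 6 h of STM2457 in the knockdown experiment (all tested genes 22.9%), 257 of 275 (93.5%) were higher at 9 h (all 32.2%) and 221 of 291 (75.9%) were higher with STM2457 in emetine-treated cells (all 21.6%). Of the genes that fell 2-fold or more, 357 of 432 (82.6%) were lower in the knockdown experiment (all 22.1%), 261 of 413 (63.2%) were lower at 9 h (all 32.5%), where 25 were higher, and 341 of 456 (74.8%) were lower with emetine (all 16.2%). Each of the 24 protein coding genes with the largest changes was called in the same direction in all 3 other comparisons. The 12 largest rises had a median log2 change of 1.77 here, 1.78 in the knockdown experiment, 1.65 at 9 h and 1.03 with emetine. The falls had medians of −2.15 here, −1.89 in the knockdown experiment, −1.0 at 9 h and −1.85 with emetine.

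Some genes stood at other places in this order. WDR6 had −2.17 here, −1.86 in the knockdown experiment, −2.06 with emetine and −0.73 at 9 h, and ATXN7L3B −1.79, −1.99, −1.74 and −0.40. HNRNPLL had −2.61 here, −2.39 in the knockdown experiment and −2.43 at 9 h, but −0.74 with emetine. ID3 had 2.17 here, 1.80 in the knockdown experiment and 1.92 at 9 h, and 0.66 with emetine, whereas RBM15 kept 1.81 with emetine. TENT5B was highest at 9 h (2.91). URB2 fell here and was higher at 9 h (0.11). Whether the changes at 9 h or with emetine differ from those here was not tested.

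**Figure D5:**
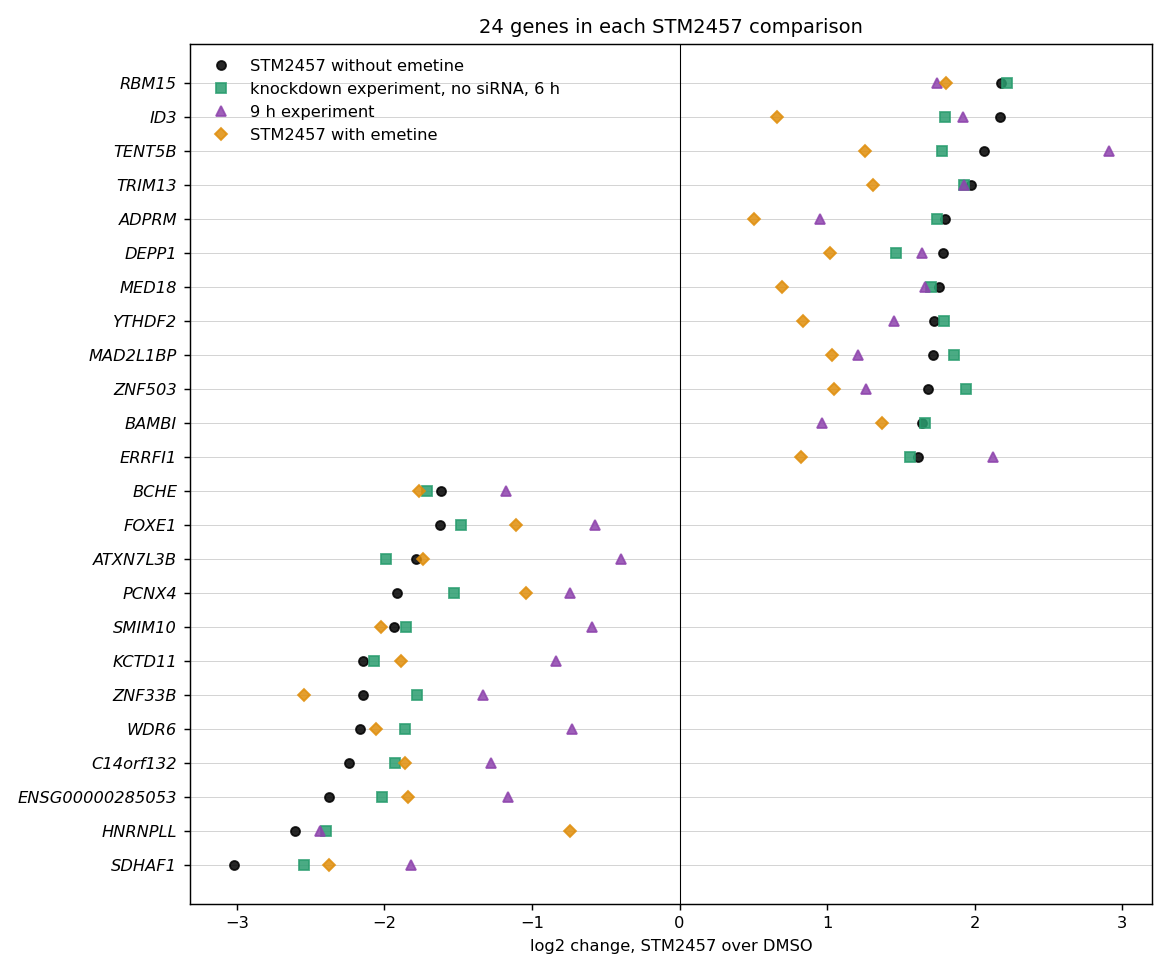
Fitted log2 change with STM2457 over DMSO (x axis) for the 12 genes with the largest rise and the 12 with the largest fall here (rows), in this comparison (black circles), in the knockdown experiment without siRNA (green squares), at 9 h (purple triangles) and in emetine-treated cells (orange diamonds). All 96 points lie on the side of 0 that the gene has here, with HNRNPLL at −2.61 here and −0.74 with emetine.

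Between the 2 experiments with 6 h of STM2457 the effect itself was compared by an interaction term, in a fit of 20 libraries that lends the 9 h groups to the estimate of the spread. Of 16720 genes 40 (0.239%) had a more positive change here and 101 (0.604%) a more negative one. PIP5K1C, a kinase that makes phosphatidylinositol bisphosphate, had the largest positive difference (0.72, SE 0.06, adjusted p = 5.73e-08). It stood at 78.8, 82.5 and 79.4 CPM with STM2457 and 49.4, 48.1 and 47.2 CPM with DMSO here, and at 38.8, 37.6 and 35.8 CPM with STM2457 and 37.5, 39.0 and 37.5 CPM with DMSO in the knockdown experiment. UQCR11 fell by 1.20 here and by 0.57 in the knockdown experiment (difference −0.67, SE 0.10, adjusted p = 0.000566). With ribosomal protein scaling 2 genes in each direction passed the threshold. Replicate 3 of STM2457 in the knockdown experiment differed from replicates 1 and 2 by 28.2 and 31.4 chi-square per degree of freedom over genes, and replicate 2 of DMSO there differed from replicates 1 and 3 by 16.97 and 24.1, where pairs within the groups compared here gave 1.79 to 11.9. Leaving out 1 library changed these counts by more than 1.5 times in 11 of 12 cases. They came to 156 and 327 without STM2457 replicate 1 of the knockdown experiment and to 175 and 635 without its STM2457 replicate 2, and without DMSO replicate 1, 2 or 3 of that experiment to 10 and 28, 19 and 60, or 18 and 20. Without DMSO replicate 1, 2 or 3 of the emetine experiment they were 5 and 17, 5 and 10, or 17 and 87, and without its STM2457 replicate 1, 2 or 3 they were 9 and 36, 10 and 15, or 7 and 17.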

How the data were processed

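Poly(A) RNA of HEK293T cells was sequenced from strand-specific TruSeq libraries, per the labels' protocols. The authors deposited raw counts per Ensembl gene, made from the reads before deposit. The submitters' processing notes list STAR 2.7.3a and featureCounts of Subread 2.0.0, with SAMtools 1.9, the trimmers Trimmomatic and cutadapt (1.18 and 4.0), FastQC 0.11.8 and GRCh38.p12. Neither an annotation release nor how strand was handled in counting is given in the sources used here, and reads of overlapping genes cannot be told apart.

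Starting from these counts, edgeR 4.0.16 (R 4.3.3) was run with TMM scaling, its default filter on low counts and a quasi-likelihood F test over the 12 libraries of the emetine experiment, which share 1 estimate of the spread. P-values were adjusted by Benjamini-Hochberg over all 15817 genes, with 0.05 as the threshold. The standard error of a log2 change is its size divided by the square root of F. The difference between the 6 h experiments was an interaction term over the 20 libraries without siRNA or emetine, and the comparisons in the knockdown and 9 h experiments were separate fits. The 92 spike-in rows were kept out of library sizes and tests. DESeq2 1.42.0, other scalings, other filters, fewer libraries and a replicate term were alternatives. No 2 replicates agreed within sampling noise.

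Named genes are METTL3 and YTHDF2, the 12 protein coding and 5 long noncoding genes with the largest called change in each direction (mean of at least 2 log2 CPM, groups without overlap), the 6 in each direction at 7 log2 CPM or more, up to 5 called members of each list by smallest p, and the 5 largest differences in each direction. ATOH8, VIRMA, ZC3H13, YTHDC2, IGF2BP3 and other list members outside this rule were named after their values were seen. Some genes that the rule names are not reported here. The genes and lists were chosen with earlier results of these data known. Gene positions, biotypes and transcripts come from GENCODE release 29, which held 58542 of the 60662 gene IDs. GGAC was searched on the transcript strand only, and overlapping matches cannot occur.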

Additional observations from a re-analysis of the deposited data

Results flagged for a closer look

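The effect of STM2457 differed between this experiment and the knockdown experiment, by the test of the difference itself, in 10 named genes (log2 differences, edgeR adjusted p). More positive here were PIP5K1C (0.72, adjusted p = 5.73e-08), NCEH1, a cholesterol ester hydrolase (0.67, adjusted p = 0.0025), ZNF608 (0.58, adjusted p = 0.0279), ATP1B2, a subunit of the sodium pump (0.56, adjusted p = 0.0413), and SLC43A1, an amino acid transporter (0.48, adjusted p = 0.0357). ATP1B2 and SLC43A1 had log2 changes of only 0.03 and 0.06 here, and of −0.56 and −0.45 in the knockdown experiment. NCEH1 stood at 34.6, 29.6 and 30.1 CPM with STM2457 and 23.7, 21.7 and 24.9 CPM with DMSO here, and at 16.2, 12.6 and 14 CPM with STM2457 and 18.7, 17.3 and 16.3 CPM with DMSO in the knockdown experiment, so the groups differ in direction between the experiments. More negative here were ATP6V0E2-AS1 (−0.84, adjusted p = 0.0277), the ubiquitin ligase ZNRF2 (−0.79, adjusted p = 0.0237), CRYBG3 (−0.69, adjusted p = 0.0203), UQCR11 (−0.67, adjusted p = 0.000566) and ZNF780A (−0.62, adjusted p = 0.0027). CRYBG3 shares exon bases with RIOX2, and ATP6V0E2-AS1 with ATP6V0E2, each on the opposite strand. Under 17 alternatives all 10 kept their sign, and PIP5K1C, NCEH1 and UQCR11 stayed past the threshold in all 17, ZNF780A in 16 and CRYBG3 in 13. The others stayed past it in 7 to 10 of 17. The experiments differ in their libraries and in the last 2 h of DMSO, and these cannot be told apart.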

How the results depend on the processing

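Of 3276 values of 252 named genes under 13 alternatives, 3213 kept their direction and their side of the threshold, among them all 546 values of the 42 genes with the largest changes. Another 62 lost the call, mostly with spike-in scaling (28 genes) or ribosomal protein scaling (20 genes, UPF2 included), for example METTL3, XBP1, MAX, RPSA, UQCRQ and H1-2, and UPF2 turned to −0.020 with ribosomal protein scaling (adjusted p = 0.795). Of 1352 counts of list members 1169 stayed within 1.5 times. For the whole comparison ribosomal protein scaling gave 2200 higher and 6684 lower genes, 163 of the higher by 2-fold or more, and spike-in scaling 2092 higher, 180 of them by 2-fold or more. DESeq2, RLE factors, no filter on low counts, the 6 libraries alone and leaving out a library (3433 to 3726 higher, 3565 to 3778 lower) kept all 4 counts within 1.5 times.

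The correlations do not settle whether replicate numbers pair the libraries. Same-numbered deviations correlated at −0.12, 0.29 and 0.16 over 9963 genes. STM2457 replicate 1 correlated best with DMSO replicate 3 (0.24). STM2457 replicate 2 correlated best with DMSO replicate 2, and STM2457 replicate 3 with DMSO replicate 3. With a replicate block 4118 genes were higher and 3457 lower, and the block changed no call of a named gene.

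The difference between the 6 h experiments (40 more positive, 101 more negative) came to 140 and 263 with DESeq2, 2 and 2 with ribosomal protein scaling, 108 and 180 with no filter, 20 and 37 with the replicate block, and 5 to 175 and 10 to 635 without 1 library. The cause was not tested. With ribosomal protein scaling the genes 2-fold or more higher here and called higher elsewhere were 127 in the knockdown experiment, 145 at 9 h and 114 within emetine, and 540 lower genes were called lower in the knockdown experiment. The 2-fold sets themselves change with the scaling. With the transcript of the most exons, the medians were 0.28 for 2 exons, 0.21 for 3 exons, and 0.40, 0.30, 0.25, 0.072, −0.024 and −0.054 for junctions up to 1, 2, 4, 6, 8 and 10 per kb. Depth limits transcripts under 0 log2 CPM, whose median SE of the log2 change was 0.41, against 0.03 above 8 log2 CPM.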

Other observations

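Below the abundance limit of the named genes, 13 genes with a fitted log2 change past 3 in size and a mean above −1.5 log2 CPM were looked up after the values were seen. Of these 11 were lower with STM2457, and the raw counts of some of them follow. NPB, the gene of the peptide neuropeptide B, had 0, 0 and 0 counts with STM2457, against 18, 19 and 15 counts with DMSO. It shares exons with ANAPC11 on its own strand and PCYT2 on the other. ZNF132-DT, the divergent transcript of a zinc finger gene, had 0, 0 and 1 counts with STM2457 and 16, 34 and 15 counts with DMSO. CEBPA-DT, which lies beside the gene of the myeloid factor CEBPA, had 7, 10 and 6 counts with STM2457 and 66, 72 and 85 counts with DMSO. Further divergent and antisense RNAs were alike, with USP46-DT at 2, 1 and 2 counts with STM2457 and 25, 14 and 12 counts with DMSO, and GTF2A1-AS1 at 0, 0 and 3 counts with STM2457 and 24, 18 and 18 counts with DMSO. The pseudogene RHOQP1 had 1, 4 and 1 counts with STM2457 and 28, 30 and 13 counts with DMSO. Both genes that were higher have no symbol. ENSG00000260743, a noncoding RNA, had 39, 44 and 36 counts with STM2457, against 5, 1 and 5 counts with DMSO, and ENSG00000280029 had 17, 10 and 11 counts with STM2457, against 0, 1 and 0 counts with DMSO. Fitted fold changes at such counts depend on the prior count and are not given.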
